A study of Mus musculus with 15 samples.

Results

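Livers of mice given KSL0608-Se and irradiation were compared with livers of young control mice by RNA sequencing. These groups held 5 libraries each, 10 of the 15 libraries in the series, and the remaining 5 came from livers of aged control mice. The labels give the compound by the code name KSL0608-Se alone. The title of the series speaks of a light-activated killing of senescent cells. The groups are called treated, aged and young below. Each library is labelled with its tissue, its group and a number, and the labels state no age, sex, strain, dose or light setting. They do not say how old the treated mice were, so a difference between treated and young livers holds any effect of the compound and light together with any difference in age, and these cannot be told apart in this comparison. No label ties a library to an animal of its own, so the p-values below describe the spread between libraries, part of which may be technical.

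All 12168 of the 55849 listed genes whose mean over the 15 libraries was at least 1 TPM entered the comparison. TPM is a transcript's share of a library's RNA, corrected for transcript length. Phtf2, at a mean of 1.0007 TPM, lay just inside this limit and Tes, at 0.9993 TPM, just outside it. A log2 difference below is the treated mean minus the young mean of log2(TPM + 1), with the standard error (SE) of the limma fit, and it understates the change of genes with low values. A gene was called when its p, adjusted by the Benjamini-Hochberg method over all 12168 genes, was under 0.05. "Rose" and "fell" are used only of called genes, and other members are given by their values.

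Much of the liver's RNA codes for secreted plasma proteins and for enzymes that clear drugs, steroids and fats. In mice, many of these genes are read at different levels in males and females, under the control of the pattern of growth hormone secretion, and among them are the major urinary protein (Mup) genes, several cytochrome P450 genes and the Sult2a sulfotransferases. The liver also holds resident macrophages, the Kupffer cells, and takes up monocytes, lymphocytes and antibody-secreting plasma cells from the blood. Senescent cells are cells that have stopped dividing for good. They often carry the cell-cycle inhibitor p16, encoded by Cdkn2a, and secrete cytokines, proteases and growth factors.

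Xist, the RNA of the inactive X chromosome, stood at 7.39 TPM or more in all 15 libraries, and no Y-linked gene examined passed 0.08 TPM. This is the pattern of female tissue, and it held in treated, aged and young libraries alike. The 26 tested hepatocyte markers summed to 159710 to 198224 TPM in treated libraries and 196465 to 245507 TPM in young libraries. Treated libraries had 19600 ± 1094 genes above 0 TPM and young libraries 18310 ± 352.2 (SD, n = 5 each; exact two-sided permutation test, p = 0.0238, adjusted p = 0.0595 over 5 library measures). Mitochondrially encoded genes took 7.856 ± 0.7315% of TPM in treated and 7.232 ± 2.812% in young libraries, and haemoglobin genes 0.1978 ± 0.07179% in treated and 0.2455 ± 0.1041% in young libraries. Treated 1 and young 4 stood apart from their groups. On the first principal component of the 10 libraries, which held 30.3% of the variance, young 4 lay at -2.55, between the treated libraries at -44.22 to -21.57 and the other young libraries at 30.66 to 51.41. On the second component, with 20.81%, young 4 lay at 72.91 and treated 1 at 26.07. Treated 1, young 4 and aged 5, set apart with earlier results of these data known, are called the 3 libraries below, and list counts that leaving them out moved by over 1.5 times are given with and without them.

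In all, 354 of the 12168 genes were called, which is 2.91% of those tested, with 265 higher (2.18%) and 89 lower (0.731%) in treated livers. Of these, 212 were at least 2-fold higher and 48 at least 2-fold lower on the log2(TPM + 1) scale. The values of the 5 treated and 5 young libraries did not overlap at all for 498 genes (4.09%), 382 of them higher in treated livers (3.14%) and 116 lower (0.953%). Called genes without overlap numbered 269. At an unadjusted p under 0.05 there were 2171 genes. The median log2 difference over all tested genes was 0.06, and 6990 of the 12168 had a positive one. Counts of members called, or with higher means, in the gene lists below are to be read against these shares. Of the genes called higher, 92 had a young mean under 1 TPM and so entered the test through other groups, and 8 of those called lower had a treated mean under 1 TPM. The filter acts on the gene lists in the same way, since low members enter through a group in which they are high. Where many members of a list are low, its count of higher means is partly set by the filter.

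The number of calls depended on single libraries and on the scaling. Without young 4, 1192 genes were called, 488 higher and 704 lower. Without treated 1 the count was 599 (528 higher and 71 lower). It fell to 183 without treated 2, 194 without treated 5, 209 without young 5, 211 without young 3 and 218 without young 2. With treated 1, young 4 and aged 5 all left out, 1458 genes were called, 963 higher and 495 lower. The surplus of higher calls did not hold under every scaling, since the share of higher calls, 74.9% here, was 43.9% with quantile normalization (322 lower) and 52.1% with median-ratio scaling (341 higher and 313 lower). Quantile normalization moved the median of all genes by over 0.1, to -0.0663, and small log2 differences below are to be read against that shift.

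**Figure D1:**
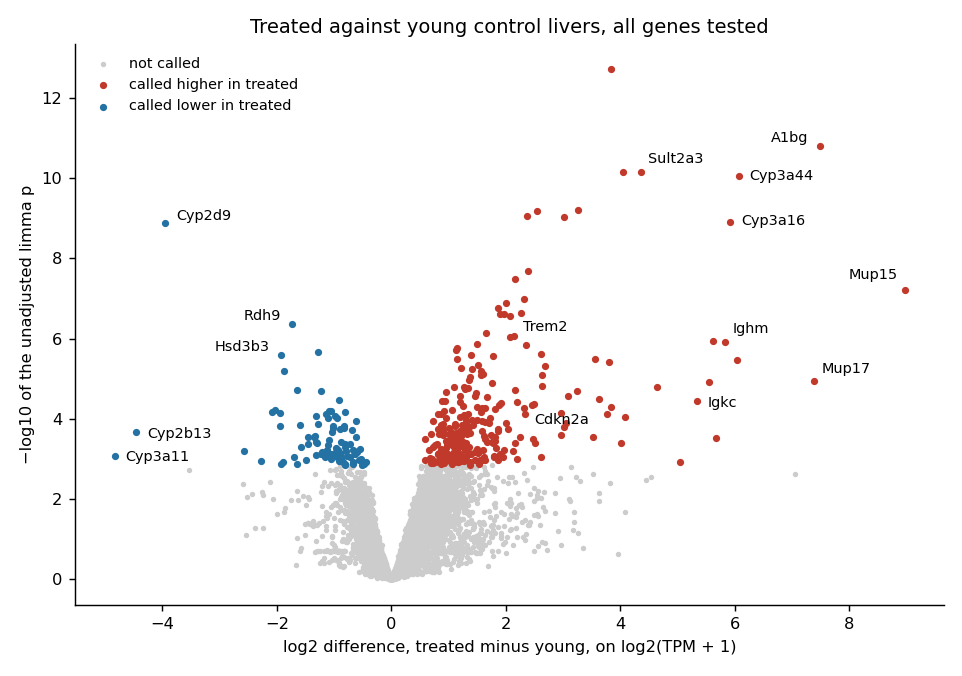
Each point is 1 of the 12168 genes tested. The horizontal axis is the log2 difference, treated minus young, on log2(TPM + 1), and the vertical axis is −log10 of the unadjusted limma p. Red points are the 265 genes called higher and blue points the 89 called lower in treated livers, and the rises reach 8.97 (Mup15) while the falls reach -4.83 (Cyp3a11).

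The largest changes were in genes of secreted liver proteins, drug and steroid metabolism and antibodies. By the naming rule, which takes the 15 largest rises and falls among called genes whose libraries do not overlap and reach a mean of 5 TPM or more in the higher group, the rises were led by 7 Mup genes, A1bg, Cyp3a44, Cyp3a16, Sult2a3, the antibody genes Ighm, Igkc and Jchain, and the pseudogene Selenok-ps7. The falls held 5 cytochrome P450 genes (Cyp3a11, Cyp2b13, Cyp2d9, Cyp4a10 and Cyp2e1), the steroid and retinol dehydrogenase genes Hsd3b3 and Rdh9, and genes of other functions. From here on, Mup20, Cyp3a41a, Cyp3a41b, Cyp2d10, Cyp2d22, Cyp2c70, Cyp2b9, Cyp2b10, Cyp2u1, Hsd3b2, Slco1a1, Apoe and Gstm2 lie outside the naming rules and were chosen after their values were seen.

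A1bg, which encodes a secreted plasma glycoprotein made at high levels in female mouse liver, stood at 3277, 3803, 1931, 4084 and 3930 TPM in treated livers 1 to 5, against 36.6, 32.2, 15.5, 8.22 and 10.3 TPM in young livers 1 to 5. Every treated value was far above every young one. A1bg rose by 7.48 (SE 0.42, limma adjusted p = 9.36e-08), and aged livers held 1712 to 5770 TPM. Sult2a3, a sulfotransferase gene, stood at 61.0, 58.7, 75.2, 63.5 and 72.9 TPM in treated livers and 0.69, 2.07, 2.04, 2.08 and 6.53 TPM in young livers, a rise of 4.36 (SE 0.30, adjusted p = 2.12e-07). The treated values differed little among themselves, and young 5 was the highest of the young. Selenok-ps7, a pseudogene by its name, stood at 9.05 to 29.1 TPM in treated livers and was listed at 0 in young 1, 2 and 5 and at 0.74 and 0.8 TPM in young 3 and 4 (log2 difference 4.05, adjusted p = 2.12e-07). At a young mean of 0.308 TPM, it entered the test through treated and aged livers.

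**Figure D2:**
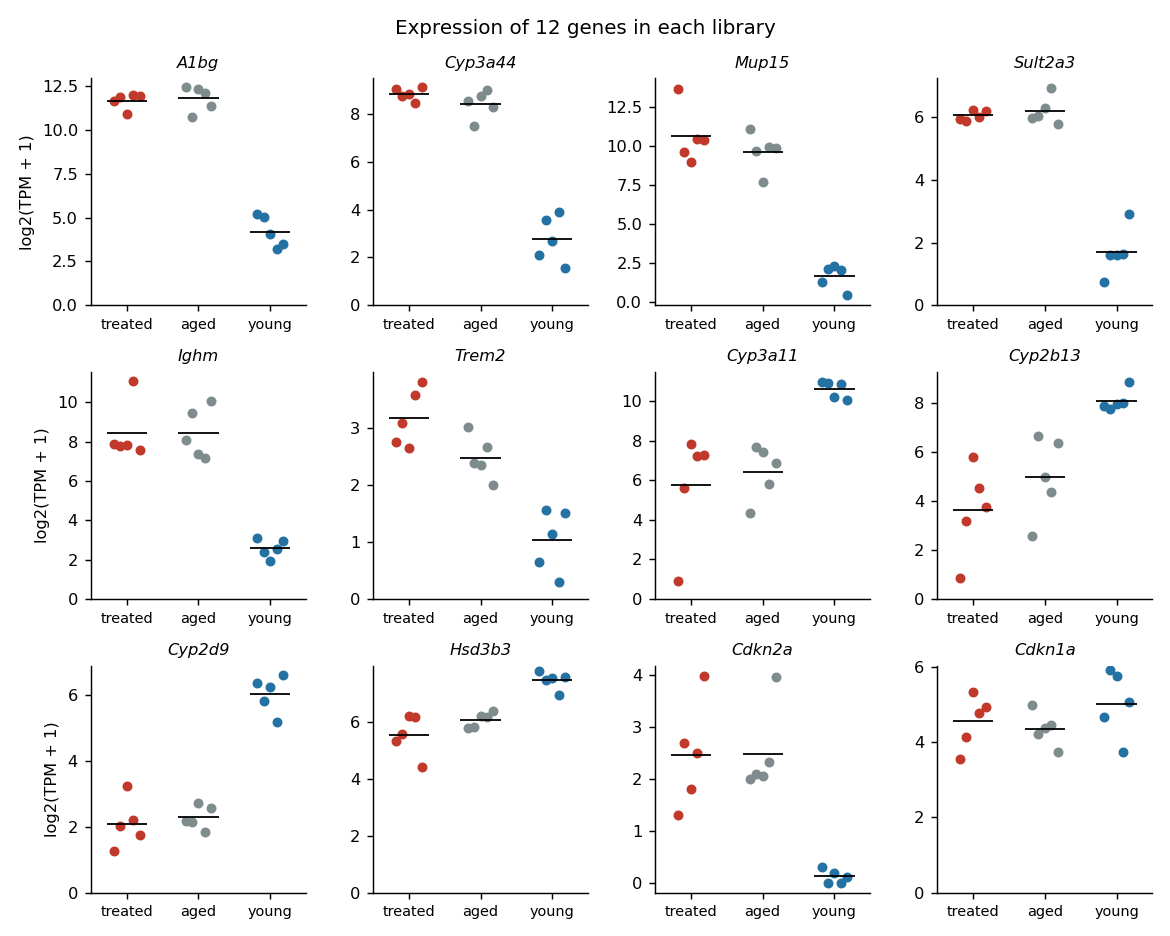
Values of 12 genes in each library, as log2(TPM + 1), with 5 treated, 5 aged and 5 young libraries from left to right in each panel and a line at the group mean. A1bg, Cyp3a44, Mup15, Sult2a3, Ighm, Trem2 and Cdkn2a are higher and Cyp3a11, Cyp2b13, Cyp2d9 and Hsd3b3 lower in every treated than in any young library, while Cdkn1a overlaps.

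Of the genes above, Cyp3a44 and Cyp3a16 rose while their relative Cyp3a11 fell, and the relatives Mup15 and Mup17 both rose. The 250 bases before the transcription start of 7 genes, these and A1bg and Cyp2d9, are shown. They come from RefSeq on GRCm38.p6, in which 8 of the 15 genes with the largest rises and 13 of the 15 with the largest falls were found, and run 5′ to 3′ on the gene's own strand, all but Cyp2d9 on the minus strand. Capitals mark the letters TTCNNNGAA (the core bound by STAT5, a factor that growth hormone activates), CAAAGTCCA (a core bound by the liver factor HNF4), both searched on either strand, and TATAA, searched on the gene's strand in the last 50 bases. The windows are A1bg chr15:60921271-60921520, Mup15 chr4:61439705-61439954, Mup17 chr4:61595833-61596082, Cyp3a44 chr5:145805875-145806124, Cyp3a16 chr5:145469724-145469973, Cyp3a11 chr5:145879855-145880104 and Cyp2d9 chr15:82452127-82452376.
A1bg: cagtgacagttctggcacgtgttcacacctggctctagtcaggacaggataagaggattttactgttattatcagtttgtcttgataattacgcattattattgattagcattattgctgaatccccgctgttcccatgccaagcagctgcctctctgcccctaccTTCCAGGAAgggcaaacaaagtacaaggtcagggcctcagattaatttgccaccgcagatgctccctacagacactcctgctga
Mup15: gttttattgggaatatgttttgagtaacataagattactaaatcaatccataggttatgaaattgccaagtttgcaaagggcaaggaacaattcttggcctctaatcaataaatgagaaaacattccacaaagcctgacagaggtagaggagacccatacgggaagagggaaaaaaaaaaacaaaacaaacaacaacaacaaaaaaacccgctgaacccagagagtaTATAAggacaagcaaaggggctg
Mup17: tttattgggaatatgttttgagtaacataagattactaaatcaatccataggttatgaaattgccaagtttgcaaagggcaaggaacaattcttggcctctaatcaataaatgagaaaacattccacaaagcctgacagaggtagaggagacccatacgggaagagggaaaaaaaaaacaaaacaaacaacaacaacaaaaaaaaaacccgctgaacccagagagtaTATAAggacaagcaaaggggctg
Cyp3a44: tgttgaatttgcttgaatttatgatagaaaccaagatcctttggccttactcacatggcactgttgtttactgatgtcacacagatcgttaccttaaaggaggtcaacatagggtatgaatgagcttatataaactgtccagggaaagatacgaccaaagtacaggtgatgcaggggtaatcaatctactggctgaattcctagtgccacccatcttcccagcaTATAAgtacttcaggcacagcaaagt
Cyp3a16: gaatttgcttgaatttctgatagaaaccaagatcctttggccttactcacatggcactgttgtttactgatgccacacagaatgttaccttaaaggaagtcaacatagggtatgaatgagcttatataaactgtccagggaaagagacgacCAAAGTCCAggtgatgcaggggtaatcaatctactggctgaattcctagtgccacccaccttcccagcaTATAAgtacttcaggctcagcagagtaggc
Cyp3a11: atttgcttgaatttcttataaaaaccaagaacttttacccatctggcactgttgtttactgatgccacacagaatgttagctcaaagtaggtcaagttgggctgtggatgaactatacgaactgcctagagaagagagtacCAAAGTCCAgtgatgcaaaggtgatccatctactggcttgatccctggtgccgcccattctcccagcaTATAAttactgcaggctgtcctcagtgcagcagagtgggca
Cyp2d9: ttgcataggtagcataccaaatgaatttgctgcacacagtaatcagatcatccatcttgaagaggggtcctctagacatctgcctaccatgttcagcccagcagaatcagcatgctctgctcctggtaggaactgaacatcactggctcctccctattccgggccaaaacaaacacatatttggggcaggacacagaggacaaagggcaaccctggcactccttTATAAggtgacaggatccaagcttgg
Over all 32851 RefSeq windows, 7.02% held TTCNNNGAA, 0.384% CAAAGTCCA and 4.93% TATAA in the last 50 bases. TTCNNNGAA began 84 bases before the start of A1bg. CAAAGTCCA began 99 bases before the start of Cyp3a16 and 109 before that of Cyp3a11, so it occurred in a gene that rose and in a gene that fell. TATAA began 23 bases before the starts of Mup15 and Mup17, 26 before those of Cyp3a44 and Cyp2d9, 30 before that of Cyp3a16 and 41 before that of Cyp3a11. In a global alignment the windows of Mup15 and Mup17 were 97.6% identical and those of Cyp3a44 and Cyp3a16 92.9%, while Cyp3a11 was 72.5% identical to Cyp3a44 and 76.6% to Cyp3a16. A match of letters is a description and shows no binding.

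Major urinary proteins are small carriers of pheromones that the liver secretes and the kidney passes into urine. Of 22 Mup genes listed, 19 were tested, 10 rose and 1 fell, with a median log2 difference of 3.29 against 0.06 for all genes. Mup genes took 4.241 ± 4.254% of TPM in treated libraries and 0.472 ± 0.2827% in young libraries (SD, n = 5 each; exact permutation p = 0.007937, the smallest these groups allow, adjusted p = 0.0397), and 2.089 ± 1.056% in aged libraries. Treated 1 alone held 11.833%, the other treated libraries 1.953 to 2.736% and young libraries 0.0842 to 0.8611%. Without treated 1, the mean difference was 1.871 percentage points, and without any single young library the adjusted p no longer passed (highest 0.159). Every treated share still lay above every young one. The loss of the call therefore does not mean that the groups overlapped, and its cause was not tested. Mup15 stood at 13056, 781, 503, 1380 and 1317 TPM in treated livers and at 1.46, 3.37, 3.85, 3.15 and 0.37 TPM in young livers, a rise of 8.97 (SE 0.82, adjusted p = 5.26e-05). Treated 1 was the high library here, and the other treated libraries were still far above every young one.

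Mup13 was the most abundant of the Mup genes named, at 50870, 5594, 6426, 10190 and 8325 TPM in treated livers and 231, 541, 395, 180 and 59.0 TPM in young livers (log2 difference 5.62, adjusted p = 0.000533). Mup17 rose by 7.38, Mup19 by 6.04, Mup1 by 5.55, Mup8 by 4.63 and Mup16 by 4.09 (adjusted p = 0.00106 to 0.00988). Mup20 went against its relatives. It encodes darcin, a male pheromone protein, and fell to 20.45 TPM in treated livers, against 74.95 TPM in young livers (log2 difference -1.93, adjusted p = 0.0479). The Mup20 call ended without any of 12 libraries, all but treated 1, treated 3 and young 4 (adjusted p = 0.0508 to 0.105). With treated 1, aged 5 and young 4 left out, 16 Mup genes rose and none fell. The transcripts of this family are nearly the same, and all 50-base words of Mup15 and Mup19 and 92.8% of those of Mup13 also occur in transcripts of other genes, so the way the authors' estimate divided reads among them is uncertain.

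Cytochrome P450 genes, which encode oxidases of drugs, steroids and fatty acids, moved in both directions. Of 56 tested, 6 rose and 11 fell (median log2 difference -0.27), and 19 fell without the 3 libraries. In the Cyp3a family, whose products clear many drugs and steroids, 4 of 8 tested genes rose and 1 fell. Cyp3a44, typical of female liver, stood at 530, 431, 454, 355 and 552 TPM in treated livers and 3.33, 10.98, 5.47, 14.1 and 1.97 TPM in young livers (log2 difference 6.07, SE 0.39, adjusted p = 2.21e-07). Cyp3a16 stood at 295, 188, 121, 143 and 140 TPM in treated livers against 0.69, 3.34, 0.36, 6.75 and 1.23 TPM in young livers (5.92, SE 0.45, adjusted p = 1.48e-06). Both were low in all young livers and never overlapped. Cyp3a41a and Cyp3a41b, a near-identical pair between which the division of reads is uncertain, rose by 3.25 and 3.83 (adjusted p = 0.00384 and 0.00748).

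Cyp3a11, a main drug-metabolizing P450 of mouse liver, went the other way, at 0.90, 47.9, 229, 149 and 152 TPM in treated livers and 1986, 1916, 1194, 1863 and 1074 TPM in young livers. It fell by 4.83 (SE 1.12, adjusted p = 0.0366), and aged livers held 19.3 to 206 TPM. Treated 1 was nearly without it. The Cyp3a11 call ended when treated 2, treated 5 or any young library but young 4 was left out (adjusted p = 0.0546 to 0.0897), with the log2 difference at -5.20 to -4.74. Cyp2d9, a steroid hydroxylase gene typical of male liver, stood at 1.42, 3.04, 8.46, 3.63 and 2.34 TPM in treated livers and 82.2, 55.8, 74.1, 35.0 and 96.8 TPM in young livers (log2 difference -3.95, SE 0.33, adjusted p = 1.48e-06). No treated library reached the level of a young one. Of 7 Cyp2d genes of the list tested, a pseudogene among them, Cyp2d10 and Cyp2d22 also fell, by 1.08 and 0.81, and the Cyp2d22 call ended without treated 2 or 5 or young 3 or 5 (adjusted p = 0.0502 to 0.0819).

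Cyp2b13, typical of female liver, stood at 0.80, 8.19, 54.4, 21.98 and 12.4 TPM in treated livers and 230, 213, 245, 255 and 459 TPM in young livers (log2 difference -4.46, SE 0.88, adjusted p = 0.0167). Its relatives Cyp2b9 and Cyp2b10 did not pass (log2 differences -2.39 and 0.41, adjusted p = 0.286 and 0.404). Of 13 Cyp2c genes tested only Cyp2c70, which makes the muricholic bile acids of rodents, rose (0.87, adjusted p = 0.0294), and none fell. The log2 differences of this family ran from -3.54, which was not called, to 0.87. The Cyp2c70 call ended without treated 2 or 5 or young 2 or 5 (0.0533 to 0.0809). Both Cyp4a genes that passed, Cyp4a10 and Cyp4a14, encode fatty acid hydroxylases driven by the receptor PPARa, and both fell. Among 17 genes of the axis of CAR and PXR, the receptors that sense foreign chemicals, Cyp3a11 and Cyp1a2 fell and none rose (median -0.51), and 5 fell without the 3 libraries.

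**Figure D3:**
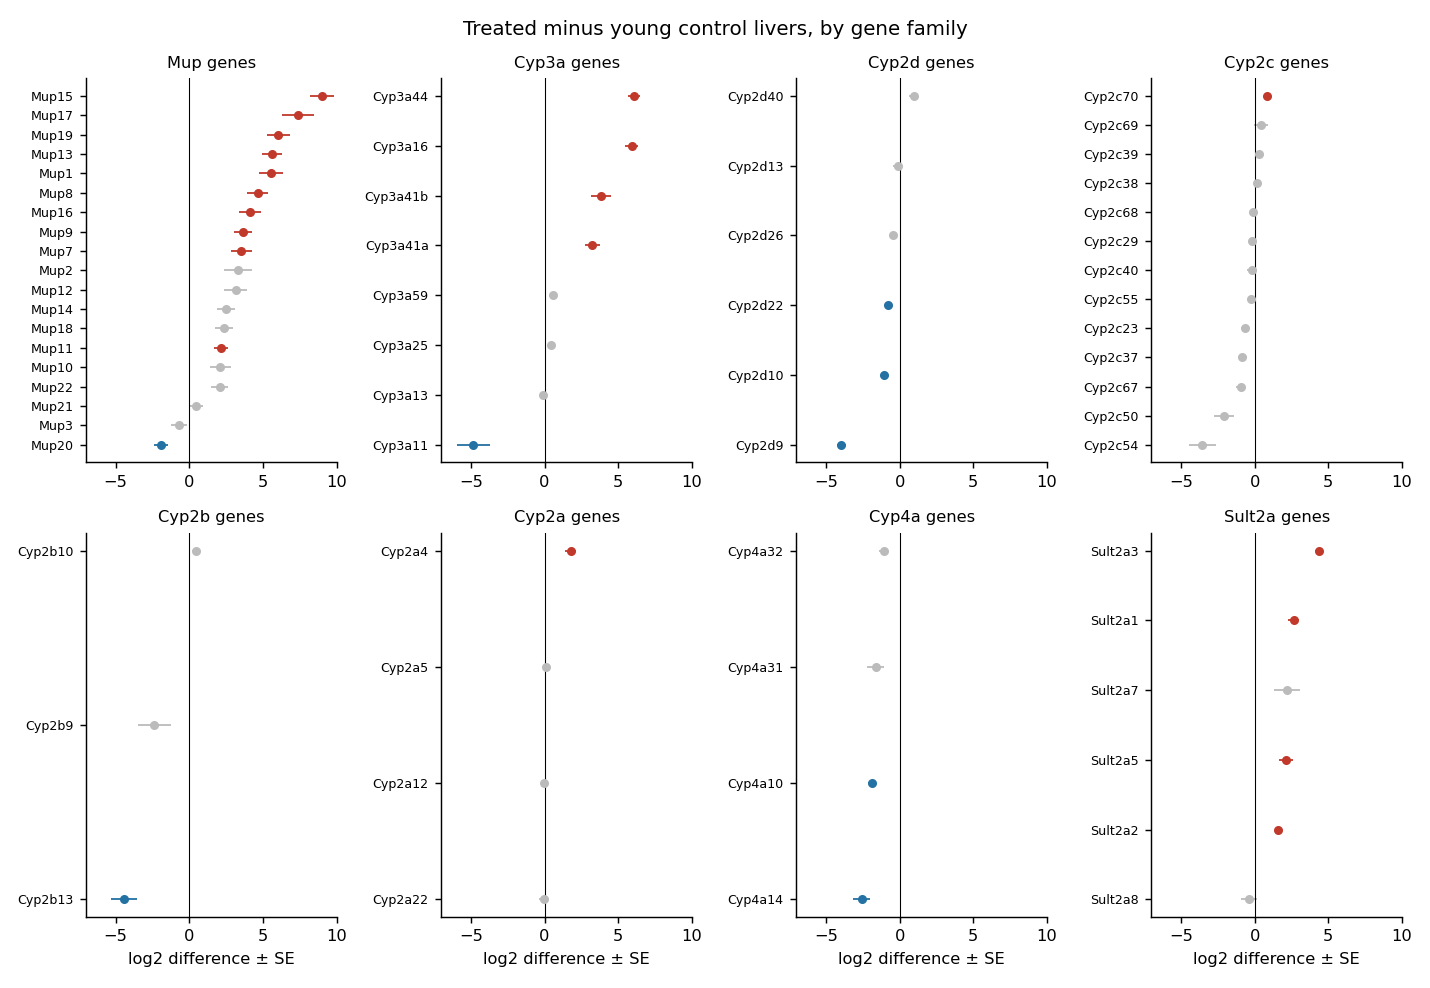
Log2 difference, treated minus young, on log2(TPM + 1), with its SE, for the tested genes of 8 families. Red marks genes that rose, blue genes that fell and grey genes that did not pass. Rises and falls stand side by side within the Mup and Cyp3a families, and 4 of 6 Sult2a genes rose.

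Of 53 tested genes of phase II conjugation, in which sulfate, glucuronate or glutathione is joined to a compound, 6 rose and 2 fell (median 0.05), and 8 rose and 4 fell without the 3 libraries. The Sult2a enzymes sulfate bile acids and steroids. Sult2a1 averaged 743.9 TPM in treated and 147.6 TPM in young livers (log2 difference 2.64, adjusted p = 0.00198), and its values were 910, 733, 825, 578 and 673 TPM in treated livers against 72.1, 110, 41.8, 237 and 276 TPM in young livers. Sult2a2 averaged 1200 TPM in treated and 428.3 TPM in young livers (1.61, adjusted p = 0.00196), with 1077 to 1497 TPM in treated and 244 to 716 TPM in young livers. In neither gene did the groups overlap. Of the words of Sult2a2, counted as for the Mup genes, 62.1% also occur in transcripts of other genes, which makes its values uncertain. Sult5a1 rose by 2.69 (adjusted p = 0.00139), with treated 1 at 64.9 TPM, the other treated livers at 10.4 to 18.4 TPM and young livers at 0.81 to 2.83 TPM.

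By the sex in which they are usually higher, 12 of 35 tested female-biased genes rose and 2 fell, Cyp2b13 among them, and the median was 0.49. Of 32 tested male-biased genes 4 rose, all of them Mup genes, and 6 fell, with a median of 0.05. The falls held Cyp2d9, Mup20, Cyp2u1 (-0.83), Hsd3b2 (-1.12), Hsd3b3 and the uptake transporter gene Slco1a1 (-1.64). Hsd3b3, a steroid dehydrogenase gene, stood at 38.7, 46.2, 72.2, 70.4 and 20.4 TPM in treated livers and 220, 175, 184, 121 and 190 TPM in young livers (log2 difference -1.93, SE 0.28, adjusted p = 0.000906). Its highest treated value was below its lowest young one. The Hsd3b2 call ended without treated 5 or young 1, 2 or 3 (adjusted p = 0.0624 to 0.088), and the Slco1a1 call without any single treated library, any of aged 1 to 4 or young 3 (0.0554 to 0.107). The counts for the female-biased list were 14 rises and 3 falls without treated 1, aged 5 and young 4.

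Genes of immune cells were higher in treated livers, and many of these calls ended when a single library was left out. In whole tissue, more cells of a type and more RNA per cell cannot be told apart. All 25 tested markers of monocytes and macrophages had higher means and 6 rose, with a median log2 difference of 1.17 against 0.06 over all genes. Their sum was 416 to 2166 TPM in treated and 202 to 465 TPM in young livers, and their mean on the log2 scale was 3.09 in treated 1, within the young range of 2.31 to 3.31, and 4.15 to 5.18 in the other treated livers. All 6 calls in this list ended without treated 2, and likewise without young 5. With treated 1, aged 5 and young 4 left out, 19 of the 25 rose.

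Ctss, a lysosomal protease of antigen-presenting cells, stood at 47.3, 135, 104, 85.5 and 158 TPM in treated livers and 42.4, 34.9, 33.7, 14.97 and 25.3 TPM in young livers (log2 difference 1.74, SE 0.37, adjusted p = 0.0182). Treated 1 lay close to young 1. Lyz2, the lysozyme gene of myeloid cells, stood at 124, 277, 203, 271 and 749 TPM in treated livers against 104, 90.6, 74.0, 35.5 and 60.2 TPM in young livers (1.96, SE 0.45, adjusted p = 0.0308). Ms4a7, a macrophage membrane protein gene, rose by 1.78 (adjusted p = 0.0203), with treated 1 at 1.25 TPM, just under young 1 at 1.26 TPM, and treated 5 at 16.1 TPM. The Ctss call ended without treated 2, treated 5 or young 5 (adjusted p = 0.0508 to 0.0575). The Lyz2 call ended without treated 2, 4 or 5 or young 2, 3 or 5 (0.0505 to 0.0767), and that of Ms4a7 without treated 2, young 3 or young 5 (0.0521 to 0.0559).

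Trem2, a lipid receptor of macrophages that take up fat and cell debris, kept its call in every fit that left out a library. It stood at 5.70, 7.43, 5.25, 10.9 and 12.9 TPM in treated livers and 0.57, 1.93, 1.20, 0.23 and 1.85 TPM in young livers, with no overlap (log2 difference 2.14, SE 0.28, adjusted p = 0.000438), and aged livers held 3 to 7.04 TPM. Of 17 tested genes of lipid-associated macrophages 6 rose and 1 fell (median 1.09), and 10 rose without the 3 libraries. Cd36, a fatty acid transporter gene also made by hepatocytes, rose by 1.21 (adjusted p = 0.00155) and lay at 38.1 to 51.2 TPM in treated and 15.2 to 27.5 TPM in young livers. Fabp5, a fatty acid carrier, rose by 1.73 (adjusted p = 0.0104), and the protease gene Mmp12 by 1.64 (adjusted p = 0.021). The Mmp12 call ended without treated 5 (log2 difference 1.44, adjusted p = 0.0715). Apoe, the apolipoprotein most of which hepatocytes make, was the member that fell (-0.54, adjusted p = 0.0405), and its call ended without treated 2, 3 or 5, aged 1 to 4 or any young library but young 4 (0.0525 to 0.121).

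Of 18 tested Kupffer cell markers 3 rose and 1 fell (median 1.09), and 10 rose without the 3 libraries. Vsig4, a complement receptor gene, stood at 47.8, 93.3, 69.0, 61.5 and 148 TPM in treated livers and 38.4, 29.7, 37.1, 16.4 and 25.8 TPM in young livers (log2 difference 1.43, SE 0.29, adjusted p = 0.0133). Clec1b rose by 1.37 (adjusted p = 0.0174) and Clec4f, a lectin gene of these cells, by 1.11 (adjusted p = 0.0264). Cd163, the haemoglobin scavenger receptor gene, fell instead, at 0.93 to 2.00 TPM in treated livers against 1.94 to 8.86 TPM in young livers, where young 4 was the lowest (log2 difference -1.50, adjusted p = 0.0416). The Clec1b call ended without treated 2 or young 5 (0.0508 to 0.0575) and that of Clec4f without treated 2, 3 or 5 or young 2 or 5 (0.055 to 0.0826). The Cd163 call ended without any of 10 libraries, namely each treated one, aged 1 and each young one but young 4 (0.054 to 0.112).

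Of 24 tested markers of B and plasma cells 3 rose and none fell, with a median of 1.52 and sums of 563 to 5877 TPM in treated and 189 to 441 TPM in young livers. Without the 3 libraries, 9 rose. Ighm, the constant region of IgM, stood at 232, 220, 229, 2153 and 187 TPM in treated livers and 7.65, 4.25, 2.87, 4.91 and 6.80 TPM in young livers (log2 difference 5.83, SE 0.70, adjusted p = 0.000545). Treated 4 lay far above the others, which were alike and still far above the young livers. Igkc, the kappa light chain constant region, rose by 5.34 (adjusted p = 0.00597), with 114 to 2852 TPM in treated and 6.11 to 16.6 TPM in young livers. Jchain, the joining chain of secreted IgM and IgA, rose by 4.02 (adjusted p = 0.0242), with 2.94 to 130 TPM in treated and 0.22 to 0.67 TPM in young livers. Its call ended without treated 2, treated 5 or young 2, 3 or 5 (0.0533 to 0.0733). Ighd, the IgD constant region of naive B cells, did not pass (1.01, adjusted p = 0.147).

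All 20 tested markers of T and NK cells had higher means (median 1.09) and 2 rose, the granzyme gene Gzmb (1.52, adjusted p = 0.0324) and the NK receptor gene Klrk1 (0.94, adjusted p = 0.0337). Of 30 listed markers 20 passed the filter. Gzmb and Klrk1, at young means of 0.58 and 0.682 TPM, passed it through other groups, so these counts are partly set by it. On the log2 scale the mean of the list was 0.91 in treated 1, inside the young range of 0.84 to 1.07, and 2.26 to 2.55 in the other treated livers. With treated 1, aged 5 and young 4 left out, 14 rose. The Gzmb call ended without treated 2, 3 or 5 or any young library but young 4 (0.0593 to 0.0966), and the Klrk1 call without treated 2, 4 or 5 or young 1, 3 or 5 (0.0548 to 0.11). Gzmk, another granzyme gene, was listed at 0 in all 5 young libraries and lay at 0.23 to 3.84 TPM in treated livers (adjusted p = 0.0874). Of 7 tested neutrophil markers Retnlg rose (1.29, adjusted p = 0.0177), and 3 rose without the 3 libraries. Its call ended without treated 5 or young 5 (0.0508 to 0.053).

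**Figure D4:**
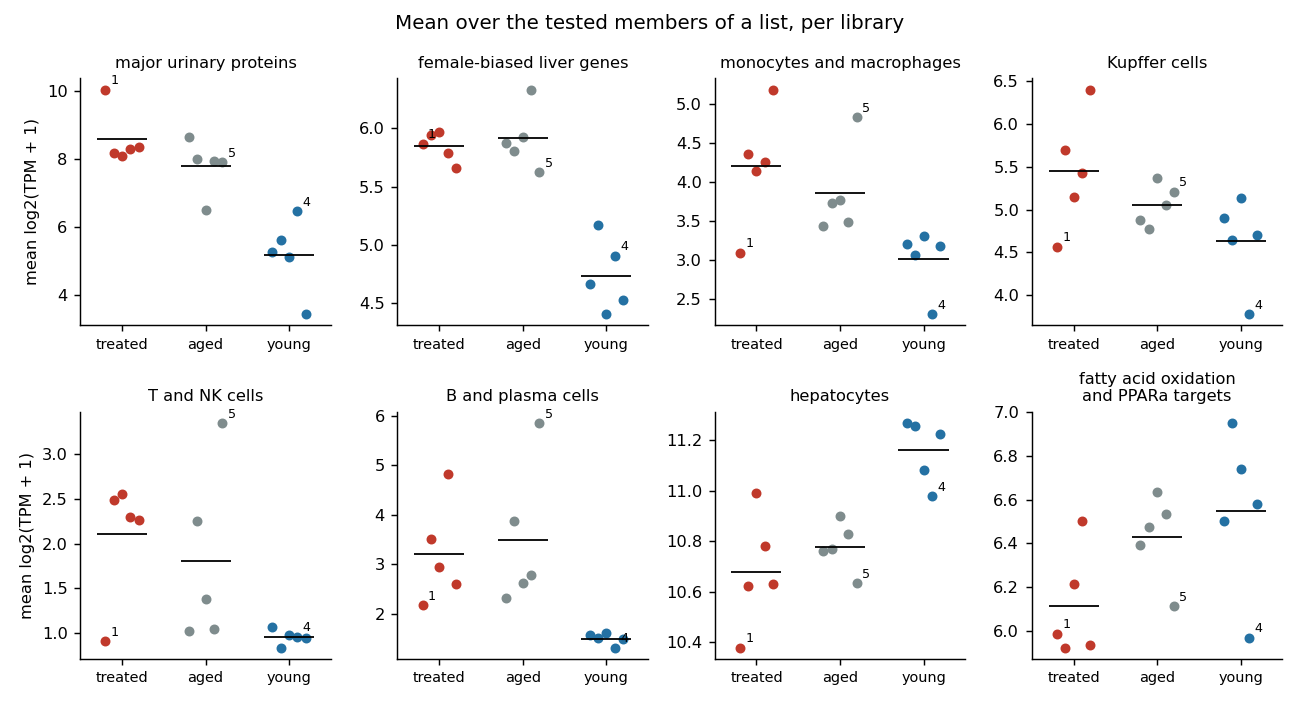
Mean of log2(TPM + 1) over the tested members of 8 gene lists, a point per library, with treated, aged and young libraries from left to right and a line at the group mean. Digits mark treated 1, aged 5 and young 4. Treated 1 has the highest Mup level of all libraries and the lowest T and NK cell level of the treated ones, 0.91 against 2.26 to 2.55.

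Genes of antigen presentation and of chemokines also had mostly higher means. All 12 tested genes of MHC class II presentation had higher means (median 1.30), and Ctss, described above, was the member that rose. H2-Eb1, a class II beta chain, lay at 41.7 to 216 TPM in treated and 21.7 to 69.7 TPM in young livers (1.74, adjusted p = 0.0954). Without treated 1, aged 5 and young 4, 11 of the 12 rose. Of 24 tested chemokines 4 rose and none fell (median 0.98), and 15 rose without the 3 libraries. They were Ccl6 (1.58, adjusted p = 0.0117), the chemoattractant gene Ccl4 (1.54, 0.0416), the dendritic cell attractant gene Xcl1 (1.28, 0.0138) and Cxcl14 (0.93, 0.00829). The Ccl4 call ended without treated 2, 3 or 5, aged 2, 3 or 4, or any young library but young 4 (0.0509 to 0.123).

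Of 27 tested genes of Toll-like receptors and inflammasomes 5 rose and none fell (median 0.68), and 10 rose without the 3 libraries. Ifi204 and Mndal, members of the Ifi200 family of interferon-induced nuclear proteins that bind DNA, rose by 1.21 and 1.30 (adjusted p = 0.00988 and 0.0114). Ifi204 stood at 4.60, 9.12, 7.43, 5.78 and 10.1 TPM in treated livers and 3.55, 3.63, 2.39, 1.34 and 2.27 TPM in young livers. The groups did not overlap, and the treated values were spread more widely. Of 52 interferon-stimulated genes 3 rose and none fell (median 0.49). The median was 0.29 without treated 2, and the number that rose was 1 without treated 2, treated 5 or young 3, 2 without treated 3, young 2 or young 5, 14 without treated 1 and 19 without the 3 libraries. Rtp4, which was called in every fit without 1 library, rose by 1.11 (adjusted p = 0.0138). Ifi27l2a rose by 1.51 (0.0337), and its call ended without treated 2, 3 or 5 or young 2, 3 or 5 (0.055 to 0.0976). Of 27 acute-phase genes 1 rose, which is 3.70% against 2.91% called over all genes. This was Cp, the copper-binding ferroxidase ceruloplasmin (1.16, adjusted p = 0.0364), and 2 rose without the 3 libraries. Its call ended without treated 2, treated 5 or any young library but young 4 (0.0584 to 0.0974).

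Genes of hepatocyte metabolism were lower in treated livers, mostly by less than 2-fold. In the same livers the immune markers above were higher and, in treated 1, Mup genes took 11.833% of TPM, and their part in the lower hepatocyte values was not tested. Of 26 tested hepatocyte markers 20 had lower means and 2 fell, Cyp2e1 and Cyp3a11 (median -0.33), and 8 fell without the 3 libraries. Cyp2e1, an ethanol-oxidizing P450 of the cells around the central vein, stood at 1013, 1474, 2229, 2725 and 1526 TPM in treated livers and 3063, 4676, 5852, 3652 and 4339 TPM in young livers (log2 difference -1.32, SE 0.26, adjusted p = 0.00976). Every treated value was below every young one. Of 34 pericentral genes 4 fell and 1, the glutathione transferase gene Gstm2, rose (median -0.34), and 9 fell without the 3 libraries. The Gstm2 call ended without treated 2, 3 or 5, aged 1 to 4 or any young library but young 4 (0.0508 to 0.125). Cyp1a2 fell by 1.05 (adjusted p = 0.00829), at 155 to 273 TPM in treated and 299 to 645 TPM in young livers, and the glutamate transporter gene Slc1a2 by 0.61 (0.0194). The Slc1a2 call ended without treated 5 or young 2 (0.054 to 0.0621).

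Of 29 periportal genes 5 fell and none rose (median -0.34). They were Ndrg1 (-1.36, adjusted p = 0.0196), the retinol and steroid dehydrogenase gene Hsd17b6 (-1.45, 0.0245), Etnppl, a phospholyase gene (-1.57, 0.0276), Cdh1, which encodes E-cadherin (-1.89, 0.0433), and Mup20. Cdh1 stood at 11.4, 0.93, 1.27, 1.11 and 0.90 TPM in treated livers and 18.1, 8.61, 10.6, 3.63 and 14.4 TPM in young livers. Treated 1 lay among the young values, and the other treated livers lay below all of them. The Cdh1 call ended without any of 12 libraries, all but treated 1, aged 5 and young 4 (0.0565 to 0.122). The Ndrg1 call ended without young 2, 3 or 5 (0.0517 to 0.0585), the Hsd17b6 call without treated 5 or any young library but young 4 (0.0508 to 0.0717) and the Etnppl call without treated 2, treated 5, young 1 or young 2 (0.0602 to 0.0809).

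Of 46 tested genes of fatty acid oxidation and PPARa targets 40 had lower means, 4 fell and 1, Cd36, rose (median -0.40). Cyp4a10 stood at 138, 66.9, 186, 223 and 134 TPM in treated livers and 470, 826, 554, 344 and 475 TPM in young livers (log2 difference -1.88, SE 0.29, adjusted p = 0.00169), with no overlap. Cyp4a14 lay at 24.9 to 281 TPM in treated and 281 to 968 TPM in young livers (-2.58, adjusted p = 0.0314), where young 4 was just under treated 4. Eci1, an isomerase of the oxidation of unsaturated fats, fell by 0.60 (0.0325). The Cyp4a14 call ended without treated 2, treated 5 or any young library but young 4 (0.0625 to 0.0897), and that of Eci1 without treated 2, treated 5 or young 1, 2 or 3 (0.0594 to 0.104). With treated 1, aged 5 and young 4 left out, 19 genes of this list fell and 2 rose.

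Of 55 tested genes of amino acid metabolism and the urea cycle 51 had lower means and 3 fell (median -0.33). Ahcy, which clears S-adenosylhomocysteine, stood at 806, 802, 958, 1096 and 702 TPM in treated livers and 1434, 1499, 1633, 1221 and 1805 TPM in young livers (log2 difference -0.80, SE 0.15, adjusted p = 0.00872). The groups did not overlap. Of the words of Ahcy, counted as for the Mup genes, 68.7% also occur in transcripts of other genes, which makes its values uncertain. Gpt, alanine aminotransferase, fell by 0.91 (0.0426) and Sardh, sarcosine dehydrogenase, by 0.78 (0.0368). The Gpt call ended without any of 10 libraries, treated 1, 2 and 5, aged 1, 2 and 4 and each young one but young 4 (0.055 to 0.123), and the Sardh call without treated 1, 2 or 5, aged 1 or 2, or young 3 or 5 (0.0501 to 0.107). Of 75 nuclear genes of oxidative phosphorylation 2 fell and none rose, which is 2.67% against 2.91% called over all genes (median -0.14). They were Ndufa10, a subunit of complex I (-0.55, adjusted p = 0.0292), and Atp5b, a subunit of the ATP synthase (-0.88, adjusted p = 0.0379). The Ndufa10 call ended without treated 2 or 5 or young 3 or 5 (0.0717 to 0.0947), and the Atp5b call without treated 1, 2, 3 or 5, aged 1 or any young library but young 4 (0.0515 to 0.115). Without the 3 libraries, 10 oxidative phosphorylation genes fell and 3 rose, with a median of 0.0028, and 12 amino acid genes fell.

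Among 25 genes that handle retinoids, the vitamin A compounds stored in the liver, 3 fell and none rose. Rdh9, a retinol dehydrogenase gene, stood at 10.1, 15.7, 13.5, 8.68 and 8.28 TPM in treated livers and 31.2, 42.0, 46.3, 25.7 and 54.3 TPM in young livers (log2 difference -1.73, SE 0.22, adjusted p = 0.000234). Rbp4, the plasma carrier of retinol, fell by 0.62 (0.0118), with 2537 to 3570 TPM in treated and 4296 to 5138 TPM in young livers. Both genes had no overlap. Retsat, a retinol saturase gene, fell by 1.60 (0.0135). Of 24 iron genes 2 rose and 1 fell, and 1 rose and 3 fell without the 3 libraries. Hamp, which encodes hepcidin, the hormone that blocks iron release, stood at 8539, 10790, 8508, 15044 and 9556 TPM in treated livers and 2045, 3653, 8082, 3299 and 4374 TPM in young livers (1.40, SE 0.28, adjusted p = 0.0114). Young 3 came close to the lowest treated values.

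**Figure D5:**
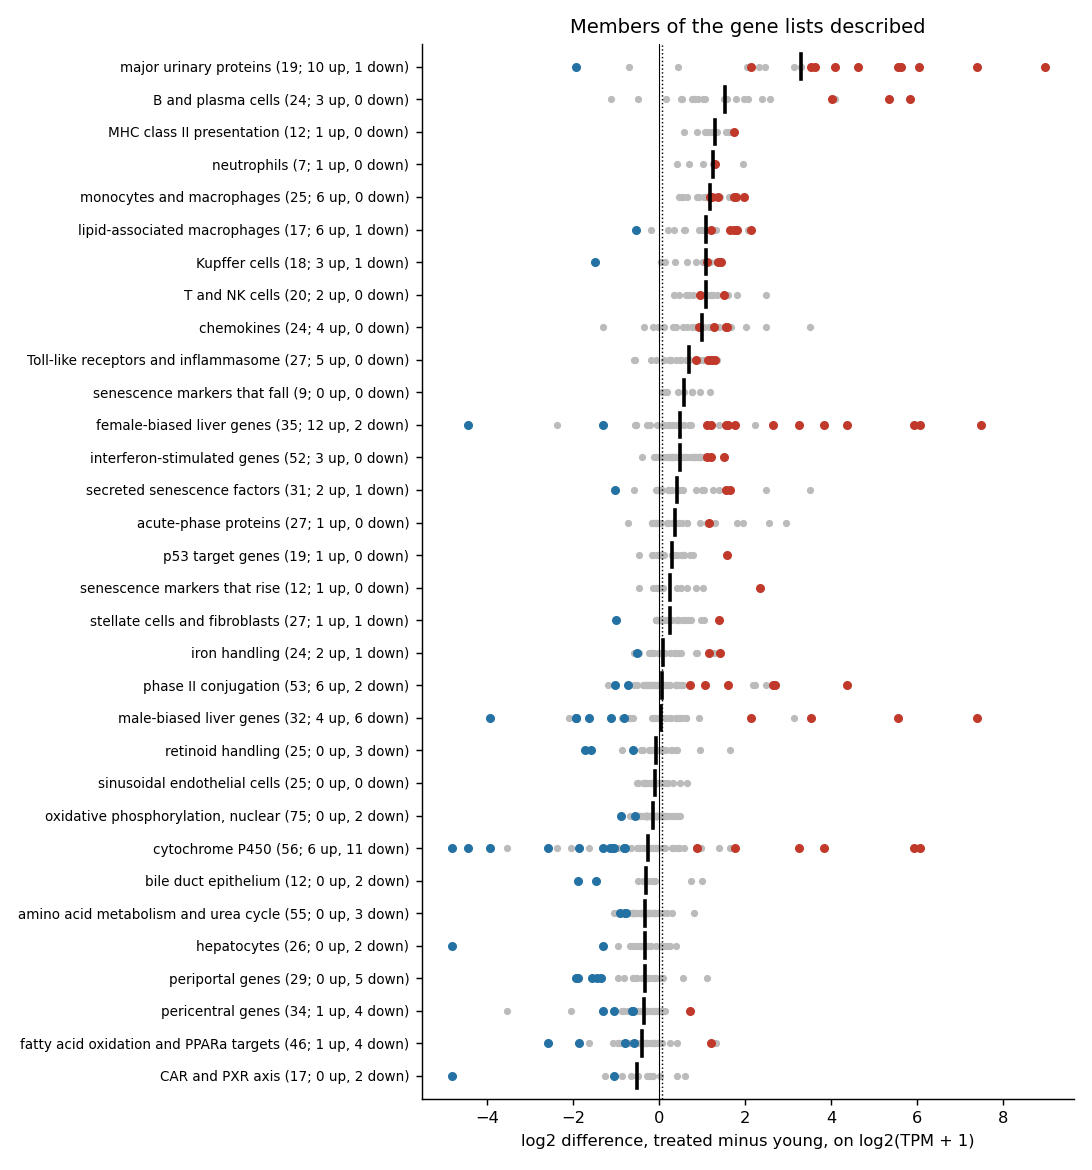
Log2 difference, treated minus young, on log2(TPM + 1), of the tested members of 32 gene lists. Each point is a gene, red where it rose, blue where it fell and grey where it did not pass, bars are list medians, and the dotted line is the median of all genes tested, 0.06. Mup genes have the highest median, 3.29, and the CAR and PXR axis the lowest, -0.51.

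Markers of senescence were mixed. Of 12 tested markers that usually rise in senescent cells, Cdkn2a rose and none fell (median 0.24). This single call is 8.33% of the list, against 2.91% called over all genes. Without the 3 libraries 2 rose, and the median was -0.0209. Cdkn2a stood at 1.47, 5.49, 2.47, 4.63 and 14.8 TPM in treated livers and 0.23, 0, 0.14, 0 and 0.08 TPM in young livers (log2 difference 2.33, SE 0.44, adjusted p = 0.00895). Every treated value was above every young one, and treated 5 was the highest. Aged livers lay at 2.97 to 14.6 TPM. With a pseudocount of 5 the Cdkn2a call ended (0.96, adjusted p = 0.0999). Cdkn1a, the p21 inhibitor, stood at 10.8 to 39.3 TPM in treated and 12.2 to 58.6 TPM in young livers (-0.48, adjusted p = 0.567). Glb1, the lysosomal galactosidase, stood at 7.66 to 12.4 TPM in treated and 6.23 to 12.9 TPM in young livers (0.04, adjusted p = 0.943).

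Lmnb1, a nuclear lamina gene that usually drops in senescent cells, stood at 1.64 to 3.70 TPM in treated and 1.21 to 3.09 TPM in young livers (0.18, adjusted p = 0.826). The sign of the difference turned for Glb1 and for Lmnb1 with quantile normalization, and for Glb1 also with median-ratio scaling. None of the 9 tested markers that usually fall passed (3 had an unadjusted p under 0.05, all higher), and all had higher means (median 0.58). Of 12 such markers listed, 9 passed the filter. Top2a, at a young mean of 0.296 TPM, passed it through other groups, so the count of higher means is partly set by the filter. Without the 3 libraries, 5 of the 9 rose. Of 31 secreted senescence factors Ccl4 and Mmp12 rose and Igfbp2 fell (9.68% called against 2.91% over all genes, median 0.40). The median was 0.19 without young 4, and the number that rose was 0 without treated 5, 7 without treated 1 and 7 without the 3 libraries. Igfbp2, an insulin-like growth factor carrier of the plasma, stood at 293, 390, 352, 204 and 176 TPM in treated livers and 401, 564, 580, 470 and 830 TPM in young livers (-1.03, SE 0.22, adjusted p = 0.0167). Its groups did not overlap, and its call ended with no filter on low values and with the aged livers left out of the fit (highest adjusted p 0.0569). Of 19 p53 targets only Gadd45a, a stress gene that holds back the cell cycle, rose (1.56, adjusted p = 0.00198). It lay at 3.41 to 10.4 TPM in treated and 0.83 to 2.22 TPM in young livers. This single call is 5.26% of the list, against 2.91% over all genes, and 3 p53 targets rose without the 3 libraries.

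Lists of structural cells of the liver differed in the share of members called, against 2.91% over all genes. None of 25 tested markers of sinusoidal endothelial cells passed (median -0.10), while 2 higher and 1 lower had an unadjusted p under 0.05. Without the 3 libraries, 1 rose and the median was -0.338. Of 27 markers of stellate cells and fibroblasts 1 rose and 1 fell (7.41% called), and 3 rose without the 3 libraries. Col15a1, a collagen of basement membranes, stood at 11, 12.7, 12.4, 11.9 and 16.4 TPM in treated livers and 5.36, 2.51, 5.95, 3.16 and 5.26 TPM in young livers (1.39, SE 0.20, adjusted p = 0.000906). Ecm1, a secreted matrix protein gene, stood at 148, 140, 150, 188 and 148 TPM in treated livers and 332, 280, 323, 191 and 514 TPM in young livers (-1.01, SE 0.21, adjusted p = 0.0147). Treated 4 and young 4 nearly met. Of 12 bile duct markers Cdh1 and Smim22 fell and none rose (16.7% called).

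Of the other largest falls, Eif4ebp3, an inhibitor of cap-dependent translation, stood at 3.41, 4.88, 12.6, 4.66 and 4.73 TPM in treated livers and 38.8, 51.4, 16.4, 16.7 and 13.9 TPM in young livers (-1.94, SE 0.37, adjusted p = 0.00895). Ociad2 stood at 0.10 to 4.73 TPM in treated and 7.93 to 11.3 TPM in young livers (-2.09, adjusted p = 0.00856). Mug1, a protease inhibitor of rodent plasma, stood at 57.4 to 319 TPM in treated and 344 to 709 TPM in young livers (-1.94, adjusted p = 0.0135). The histone gene H3c14 (-2.27, adjusted p = 0.0416), Pcp4l1 (-1.71, 0.0377), Smim22 (-1.46, 0.0196) and Vcl, the adhesion protein vinculin (-1.31, 0.0236), also fell without overlap. These 4 calls ended without single libraries, for H3c14 without treated 2 to 5, aged 1 or 3 or young 1, 2 or 5 (0.0565 to 0.114), for Pcp4l1 without treated 2 or 5, aged 2 or young 1, 2, 3 or 5 (0.0533 to 0.108), for Smim22 without young 2 (0.0517) and for Vcl without treated 2, treated 5 or young 5 (0.0516 to 0.0719). All 50-base words of the H3c14 transcripts, 68.3% of those of Rdh9 and 65.5% of those of Eif4ebp3 also occur in transcripts of other genes, which makes their values uncertain.

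Whether treated livers differ from young ones in another way than aged livers do was tested as treated against aged livers in the same fit, since the young libraries are shared. By limma with an adjusted p under 0.05, 1 of 12168 genes was called (0.00822%), and 537 had an unadjusted p under 0.05. That is fewer than would pass an unadjusted 0.05 on average if no gene differed. The next adjusted p was 0.404. The called gene, Gm42605, is a predicted gene outside the naming rule and is named after its values were seen. It averaged 14.71 TPM in treated livers, was listed at 0 in all aged livers and averaged 0.092 TPM in young livers, and its log2 difference from young livers was 3.83 (adjusted p = 2.39e-09). Gm42605 thus passed the filter of 1 TPM through treated livers alone, the group in which it is high. Among the genes above, A1bg differed between treated and aged livers by -0.13, Cyp3a44 by 0.42, Trem2 by 0.69, Cyp2d9 by -0.20 and Cdkn2a by -0.03 (adjusted p of 0.925 to 0.996). Of the other genes above, those of smallest unadjusted p in the limma fit were higher by 0.91 (Ifi204), 1.21 (Mmp12), 1.03 (Ccl6), 0.81 (Mndal) and 1.04 (Fabp5), each with an unadjusted p under 0.05 and an adjusted p of 0.925. The median treated minus aged difference of the interferon-stimulated genes was 0.43, against -0.0005 over all genes tested. It was larger for Mup genes (0.77), neutrophils (0.58), Kupffer cells (0.50) and lipid-associated macrophages (0.46). Other lists lay lower, down to -1.97 for skeletal muscle markers. A p that misses the threshold does not show that treated and aged livers were alike.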

How the data were processed

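RNA of mouse livers was extracted with TRIzol, treated with DNase I and sequenced on an Illumina platform, per the labels' protocols. Reads were trimmed with fastp, aligned with HISAT and quantified with RSEM, per the submitters' processing notes, which name GRCm39 as the build and no versions. The authors deposited TPM values to 2 decimals, and these were used as deposited. Sequencing depth cannot be read from TPM and is unknown, and no counting interval is given. The authors' 3 columns of group means were not used.

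Genes averaging 1 TPM or more across the 15 libraries were tested as log2(TPM + 1) with limma 3.58.1 in R 4.3.3 (mean-variance trend, robust estimation). All 3 groups were in the fit, and Benjamini-Hochberg adjustment ran over all 12168 genes at 0.05. TPM values are shares of a library, so an abundant gene that rises lowers all others, and RSEM divides the reads of near-identical genes by estimation. Genes were named by a rule: Cdkn1a, Cdkn2a, Glb1 and Lmnb1, the 15 largest rises and 15 largest falls described above, and the 4 members of smallest p in each list. The rule left out predicted genes and antibody variable segments. Genes named outside it are said to be so. The members, the gene lists and the libraries called apart were chosen with earlier results of these data known.

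Alternatives covered the pseudocount (0.1 and 5), the filter (none, and a mean of 5 TPM), the groups in the fit, the scaling, the variance model, the replicate number as a block and the omission of libraries. The limma step was checked on simulated data. Library measures were compared by exact permutation tests. Promoter windows came from RefSeq on GRCm38.p6, while the deposited values use GRCm39, so no coordinates of the 2 builds were mixed. Shared 50-base words were counted in GENCODE M21 transcripts. Python steps used pandas 2.3.3, Biopython 1.88 and matplotlib 3.10.9.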

Additional observations from a re-analysis of the deposited data

Results flagged for a closer look

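In each group of 5 libraries, the gap between the highest or lowest library and its nearest neighbour was divided by the group's range, and ratios above 0.71 are listed here. Chance alone gives about 5% of groups such a ratio where values are normally distributed and groups independent. Here the ratios were taken on TPM itself, and genes such as the Mup genes vary together. The count below is therefore not to be read as an excess over 5%. Of the 212 groups examined among the genes named and the library measures, 28 had one, and no explanation was tested for any.

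Treated 1 was the high library for the Mup genes, at 13056 TPM for Mup15, 9469 TPM for Mup17, 18366 TPM for Mup19, 50870 TPM for Mup13, 641 TPM for Mup1, 211 TPM for Mup8 and 3184 TPM for Mup16, and Mup genes together took 11.833% of its TPM. It was also high for Cdh1, at 11.4 TPM, and for Sult5a1, at 64.9 TPM. Treated 4 was high for the antibody genes Ighm (2153 TPM), Igkc (2852 TPM) and Jchain (130 TPM) and for Ecm1 (188 TPM). Treated 5 was high for the macrophage genes Lyz2 (749 TPM) and Ms4a7 (16.1 TPM). Treated 3 was high for Eif4ebp3 (12.6 TPM) and Sult2a2 (1497 TPM).

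Young 4 was low for Mug1, at 344 TPM, and high for Mup1 (4.93 TPM), Mup8 (10.3 TPM), Cyp3a41b (1135 TPM), Vcl (22.7 TPM) and C4a (7.86 TPM). The other young libraries stood at 51.88 to 301.6 TPM for Cyp3a41b and at 6.42 to 10.2 TPM for Vcl. Young 5 was high for Sult2a3 (6.53 TPM) and Cyp2b13 (459 TPM), young 1 for Etnppl (61.2 TPM) and young 3 for the predicted gene Gm42605 (0.46 TPM), which the other young libraries list at 0.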

How the results depend on the processing

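Of the called genes among the 147 examined across alternatives, 53 kept their call in every alternative and 48 lost it in at least 1, and none of these changed direction. The number of genes called was 188 (152 higher, 36 lower) with no filter and 217 (145 higher) with a filter at a mean of 5 TPM. With that filter limma called 0 genes between treated and aged livers, where 280 had an unadjusted p under 0.05. Gm42605, the gene called there in the main fit, averages under 5 TPM over all libraries. The filter therefore left it untested, and its absence from the calls says nothing of its difference. Without the aged livers in the fit 48 genes were lower. Quantile normalization gave 574 calls, 322 lower, median-ratio scaling 654 calls, 313 lower, and library weights 1538 calls, 947 higher and 591 lower. Without treated 1, aged 5 and young 4, the calls numbered 1458 (963 higher, 495 lower), and the Mup share differed by 1.969 percentage points (exact permutation test, adjusted p = 0.0714). The unadjusted p of that share was the smallest that these smaller groups allow. Leaving out 1 library at a time gave 183 to 1192 calls, 143 to 528 higher, 37 to 704 lower, and 1 to 2 calls between treated and aged livers. The difference in genes above 0 TPM then ran between 1001 and 1618, in the share of the 10 most abundant genes between -4.065 and -1.972 percentage points, in the mitochondrial share between -0.2884 (without young 5, a turned sign) and 1.562, in the haemoglobin share between -0.07974 and -0.02241 and in the Mup share between 1.871 and 4.341. The log2 difference of Glb1, 0.04 and not called, ran between -0.1119 and 0.1264 when 1 library was left out and turned to -0.0649 with quantile normalization, -0.0555 with median-ratio scaling, -0.0083 with library weights, -0.0305 without treated 4 and below 0 also without young 4, and to -0.0209 without the 3 libraries together, and that of Lmnb1 to -0.0095 with quantile normalization. The causes of these shifts were not tested. The replicate numbers did not pair the libraries: treated and young libraries of the same number correlated at 0.0531, -0.1218, -0.0832, -0.249 and -0.002, none best with its own number, and with the number as a block 373 genes were called (298 higher, 75 lower). Depth is unknown, which leaves the precision of low TPM values open to the spread between libraries alone.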

Other observations

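All genes in these paragraphs lie outside the naming rule and were chosen after their values were seen. Of 25 tested genes of fatty acid and triglyceride synthesis 2 rose, both lipases of the patatin family that sit on fat droplets. Pnpla3 stood at 19.3, 45.5, 23.6, 3.32 and 11.97 TPM in treated livers and 2.55, 1.13, 0.38, 0.55 and 1.32 TPM in young livers (log2 difference 3.02, SE 0.59, limma adjusted p = 0.0138). Treated 4 was the lowest treated liver and still above every young one. Pnpla5 stood at 10.3, 9.98, 4.01, 0.60 and 3.35 TPM in treated livers against 0.26, 0.18, 0, 0 and 0.22 TPM in young livers (2.24, SE 0.48, adjusted p = 0.0194), and its call ended without treated 2 or young 3 (0.0518 to 0.0561). The complement gene C4a rose by 1.30 (adjusted p = 0.0125), with 8.4 to 23.9 TPM in treated and 4.26 to 7.86 TPM in young livers. Its sequence is close to that of C4b, so the division of reads between them is uncertain. Ugt1a5, a glucuronosyltransferase gene that shares its last exons with the other Ugt1a genes, rose by 1.06 (0.00825), with 121 to 245 TPM in treated and 70.4 to 102 TPM in young livers. Inmt, a methyltransferase gene, fell by 1.02 (0.0138), with 229 to 534 TPM in treated and 711 to 863 TPM in young livers.

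No gene was called in the lists of cholesterol synthesis (25 genes tested, 0 higher and 3 lower at an unadjusted limma p under 0.05), glucose metabolism (34 genes, 1 higher and 7 lower), cytosolic ribosomal proteins (79 genes, 6 higher and 1 lower), heat shock (22 genes, 0 higher and 1 lower), autophagy (26 genes, 4 higher and 3 lower) and the growth hormone axis (17 genes, 0 higher and 3 lower). The cell cycle list, also with no call, had 20 of 22 genes with higher means in treated livers, a median log2 difference of 0.51 against 0.06 over all genes, and 7 higher and 0 lower at an unadjusted p under 0.05. Of its 42 listed genes only these 22 passed the filter, so the count of higher means may be partly set by it. The median of the cytosolic ribosomal proteins was 0.09. Skeletal muscle markers, 8 of which were tested, summed to 3.28 to 6.82 TPM in treated and 2.45 to 3.43 TPM in young livers, while aged 2 held 501 TPM and aged 4 held 184 TPM.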
